A study of Mus musculus with 20 samples.

Results

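The 9 genes described here serve dopamine and cyclic nucleotide signalling in striatal neurons, and 9 of 9 were found among the 34620 gene symbols of the count tables. They are Gnal, Adcy5 and Rgs9, which pass on or limit receptor signals, Pde10a and Pde1b, which break cyclic nucleotides down, Ppp1r1b and Arpp21, which encode substrates of protein kinase A, and Ptpn5 and Rasd2, which act on kinase signalling and G proteins. The genes were chosen by name for their place in the pathway, with earlier results of these data known. The study compared mouse brain regions and stages of development by DNA methylation and by gene expression. Its 20 samples comprise 6 RNA libraries, whose read counts per gene are used below, and 14 samples treated with bisulfite, not analysed here.

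Striatal tissue gave 2 libraries of dorsal medium spiny neurons (dMSN 1 and dMSN 2), 1 of young neurons of that type (yMSN) and 1 of striatal precursors (SP). The labels spell the cell type as medial spiny neuron. Hippocampal tissue gave 1 library of young CA pyramidal neurons (yCA) and 1 of hippocampal precursors (HP). All 6 are labelled as wild-type male C57BL/6 brain, no allele or agent is given for them, and the labels give no age. The tissue was cut from frozen sections by microdissection, so each library holds every cell type of its piece of tissue. SP, HP, yMSN and yCA have no replicates. An SD is given for dMSN alone, over 2 libraries that the labels call replicates without saying whether they came from separate animals. In the dMSN comparisons p-values measure only the spread between these 2 libraries, which may be technical. In the tests over both lineages the spread also takes in any difference between lineages in the change from precursor to young.

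Medium spiny neurons are the projection neurons of the striatum and receive dopamine from the midbrain. Dopamine receptors of the Drd1a gene and adenosine receptors of the Adora2a gene stimulate the G protein Golf, which activates adenylyl cyclase, and the cyclic AMP formed activates protein kinase A. The kinase phosphorylates DARPP-32, which then inhibits protein phosphatase 1, while phosphodiesterases remove cyclic AMP and cyclic GMP. The genes of this cascade are known for their high expression in adult striatum.

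Read counts assigned to genes were 31282185 to 36969136 in the HP, SP, yCA and yMSN libraries and 145713678 to 152347673 in the dMSN pair, so dMSN values have the smallest counting error. Levels are given as CPM, counts scaled to library size, and adjusted between libraries by the trimmed mean of M values (TMM). The young libraries also held transcripts typical of tissues outside the brain. The median level of 15 skeletal muscle genes was 82.5 CPM in yMSN against 244 CPM in yCA. That of 14 olfactory epithelium genes was 17.8 CPM in yMSN against 0.308 CPM in yCA. For 11 bone and cartilage genes the median was 31.5 CPM in yMSN against 0.591 CPM in yCA. The 11 genes of vessels and meninges summed to 12157 CPM in yMSN against 1431 CPM in yCA, with Col1a1 at 6723 against 506 CPM. The defining markers separated the young libraries only in part. Neurod6 and Tbr1, transcription factors of pallial pyramidal neurons, were lower in yMSN, at 169 CPM against 396 CPM in yCA for Neurod6 and 151 CPM against 209 CPM for Tbr1, but were well above 0 in both. The striatal markers Penk and Ebf1 were higher in yMSN. Penk stood at 39.4 CPM against 23.7 CPM in yCA, and Ebf1 at 95.5 CPM against 58.8 CPM. Of 11 transcription factors of striatal projection neurons, Ebf1 among them, 5 were higher in yMSN and 6 lower. Of 9 striatal receptor and peptide genes, Penk among them, 4 were higher in yMSN and 5 lower. Their median was 10.4 CPM in yMSN against 10.5 CPM in yCA. In dMSN, the same 9 genes had medians of 190 and 154 CPM, beside 936 and 1487 CPM of Slc17a7, the vesicular glutamate transporter of cortical neurons. The 14 glial genes summed to 8886 and 7851 CPM in dMSN, against 555 CPM in yMSN.

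All 9 genes were higher in dMSN than in yMSN, and 9 of 9 passed the test (edgeR quasi-likelihood test, Benjamini-Hochberg adjusted p under 0.05 over 19192 genes tested), where 32.1% of all genes tested were called higher. Their median log2 change was 4.11, against -0.11 over all genes tested. The sizes ranged from 1.43 on the log2 scale for Gnal to 7.47 for Rasd2. Both dMSN libraries lay above all 4 other libraries for 9 of 9 genes, which was so for 37.9% of genes with at least 1 CPM. Of 14 pan-neuronal genes 10 rose as well, with a median of 3.08, and 10 interneuron genes summed to 2260 and 2197 CPM in dMSN, against 214 CPM in yMSN; their part in the changes was not tested. The spread in this test comes from the dMSN pair alone, with 1 residual degree of freedom, and yMSN is assumed to vary like it. In bulk tissue, fewer cells of a type and less RNA per cell cannot be told apart.

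**Figure D1:**
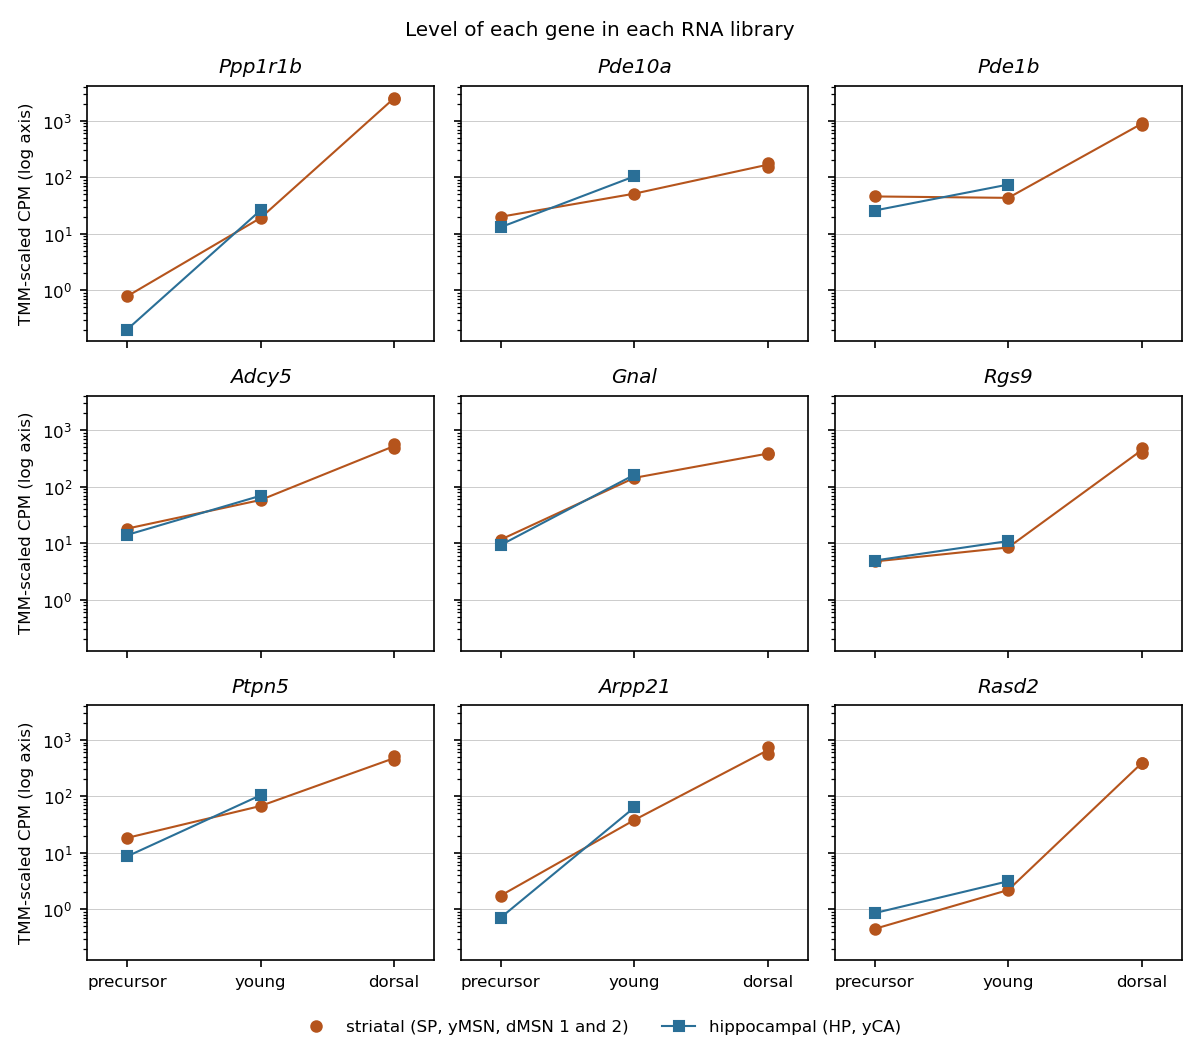
TMM-scaled CPM on a log axis for each gene, by stage, in the striatal libraries (circles, with a line through the dMSN mean) and the hippocampal libraries (squares). The dMSN circles lie above all other points in each of the 9 panels, and at the young stage the yMSN circle lies below the yCA square in each; levels in different panels are not per gene length.

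Gnal, Adcy5 and Rgs9 stand at the receptor end of the cascade. Gnal encodes the alpha subunit of Golf and stood at 11.7 CPM in SP, 144.6 CPM in yMSN, and 391 and 387 CPM in dMSN 1 and 2, while HP held 9.36 CPM and yCA 163.9 CPM. It rose by 1.43 on the log2 scale in dMSN against yMSN (adjusted p = 8.1e-05, SE 0.214), the smallest change of the 9. On the log2 scale both young libraries lay nearer to dMSN than to the precursors, and yMSN already held 37.2% of the dMSN level. Gnal also serves odorant receptors in olfactory sensory neurons, whose markers were present in yMSN. Omp, which marks these cells, had 42.9 CPM in yMSN against 0.283 CPM in yCA, and Cnga2, a channel subunit of theirs, 13.7 CPM in yMSN against 0.231 CPM in yCA. The 14 olfactory genes summed to 377 CPM in yMSN against 156 CPM in yCA, where S100a5 was at 0. What part they have in the Gnal level of yMSN was not tested. Chmp1b, which overlaps the span of Gnal in the GRCm38.p6 annotation, had more reads than Gnal in the precursors. These were 1683 against 463 in SP and 1309 against 326 in HP. Whether the overlap touches the precursor levels of Gnal was not tested.

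Adcy5, the main adenylyl cyclase of the striatum, stood at 18.2 CPM in SP, 58.6 CPM in yMSN, and 579 and 478 CPM in dMSN 1 and 2, with 14.1 CPM in HP and 69.7 CPM in yCA. The young pair lay between the precursors and dMSN, and Adcy5 rose by 3.17 on the log2 scale in dMSN against yMSN (adjusted p = 3.7e-07, SE 0.253). Rgs9 encodes a protein that speeds GTP hydrolysis by G proteins and shortens dopamine receptor signals. It stood at 4.78 CPM in SP, 8.47 CPM in yMSN, and 497 and 402 CPM in dMSN 1 and 2, with 4.97 CPM in HP and 11.0 CPM in yCA. All 4 libraries before dMSN were low, within 4.78 to 11.0 CPM. Rgs9 rose by 5.73 on the log2 scale in dMSN against yMSN (adjusted p = 1.1e-08, SE 0.295), and 1.81% of genes tested had a larger log2 change.

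Pde10a and Pde1b hydrolyse both cyclic AMP and cyclic GMP, Pde1b under control of calmodulin. Pde10a stood at 20.0 CPM in SP, 51.4 CPM in yMSN, and 154 and 182 CPM in dMSN 1 and 2, with 13.1 CPM in HP and 104 CPM in yCA. The yCA library reached 62.1% of the dMSN mean, the highest share of any of the 4 earlier libraries for any of the 9 genes, and yMSN reached 30.6%. Pde10a rose by 1.71 on the log2 scale in dMSN against yMSN (adjusted p = 2.4e-05, SE 0.221), and in the model with lineage and stage as terms the value was 1.25 with an adjusted p = 0.065 in edgeR, so the call rests on the choice of model.

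Pde1b stood at 45.8 CPM in SP, 43.3 CPM in yMSN, and 929.6 and 854 CPM in dMSN 1 and 2, with 25.8 CPM in HP and 74.5 CPM in yCA. The log2 ratio of yMSN over SP was -0.08, and its 95% counting interval of -0.18 to 0.01 included 0. The whole increase along the striatal libraries lay between yMSN and dMSN, where Pde1b rose by 4.37 on the log2 scale (adjusted p = 4.5e-08, SE 0.269).

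Ppp1r1b and Arpp21 encode the protein kinase A substrates DARPP-32 and ARPP-21. Ppp1r1b stood at 0.780 CPM in SP (31 reads), 19.1 CPM in yMSN, and 2574 and 2472 CPM in dMSN 1 and 2, with 0.201 CPM in HP (7 reads) and 26.1 CPM in yCA. The level was lowest in the precursors, higher in both young libraries and highest in dMSN, at 2523 ± 72.2 CPM (SD, n = 2). Ppp1r1b rose by 7.05 on the log2 scale in dMSN against yMSN (adjusted p = 5.7e-09, SE 0.332) and by 11.66 in dMSN against SP (adjusted p = 6.2e-10, SE 0.421). The young libraries held 0.756% of the dMSN level in yMSN and 1.03% in yCA.

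Arpp21 stood at 1.76 CPM in SP, 38.4 CPM in yMSN, and 565 and 762 CPM in dMSN 1 and 2, with 0.718 CPM in HP and 64.0 CPM in yCA. Of the 9 genes it was second to Gnal in how early it moved: 51.9% of the log2 distance from SP to the dMSN mean was covered by yMSN. Its dMSN mean was 663 ± 139 CPM (SD, n = 2), the widest spread of the 9 relative to its mean. Arpp21 rose by 4.11 on the log2 scale in dMSN against yMSN (adjusted p = 1.3e-07, SE 0.290). ARPP-21 is an RNA-binding protein, and its gene is the host of a microRNA gene, Mir128-2, which the RefSeq annotation of GRCm38.p6 places within the span of Arpp21 on the minus strand. Its mature products are shown as sequences that lie within a gene of the set, with the seed (bases 2 to 8) in capitals, at chr9:112118644-112118664 and chr9:112118679-112118701.
mmu-miR-128-3p: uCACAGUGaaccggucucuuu
mmu-miR-128-2-5p: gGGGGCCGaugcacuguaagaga
Mir128-2 had 0 reads in each of the 6 libraries. The libraries were made from polyA RNA, so mature microRNAs were not measured.

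Ptpn5 encodes STEP, a striatum-enriched tyrosine phosphatase that acts on kinases and glutamate receptors. It stood at 18.4 CPM in SP, 67.8 CPM in yMSN, and 509.6 and 444 CPM in dMSN 1 and 2, with 8.67 CPM in HP and 105 CPM in yCA. Ptpn5 rose by 2.81 on the log2 scale in dMSN against yMSN (adjusted p = 6.8e-07, SE 0.240). Rasd2 encodes Rhes, a small GTPase enriched in striatum. It stood at 0.453 CPM in SP (18 reads), 2.21 CPM in yMSN, and 398 and 385 CPM in dMSN 1 and 2, with 0.861 CPM in HP and 3.16 CPM in yCA. The 4 earlier libraries reached 3.16 CPM at most, and Rasd2 rose by 7.47 on the log2 scale in dMSN against yMSN (adjusted p = 2.4e-09, SE 0.305), with 1.15% of genes tested showing a larger log2 change.

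The 9 genes differed in timing. As a share of the log2 distance between SP and the dMSN mean, the part covered by yMSN was 71.8% for Gnal, 51.9% for Arpp21, 44.3% for Pde10a, 40.1% for Ptpn5, 39.6% for Ppp1r1b, 34.7% for Adcy5, 23.4% for Rasd2, 12.6% for Rgs9 and -1.95% for Pde1b. On the linear scale yMSN held from 0.565% of the dMSN mean for Rasd2 to 37.2% for Gnal. The 2 orders are unlike: Ppp1r1b and Rasd2 had covered part of a long log2 distance while remaining below 1% of their dMSN level. Of the 9 genes, 9 also passed in dMSN against SP, with log2 changes of 3.07 for Pde10a to 11.66 for Ppp1r1b, where 39.1% of genes tested were called higher. That comparison shares the dMSN libraries with the one against yMSN.

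**Figure D2:**
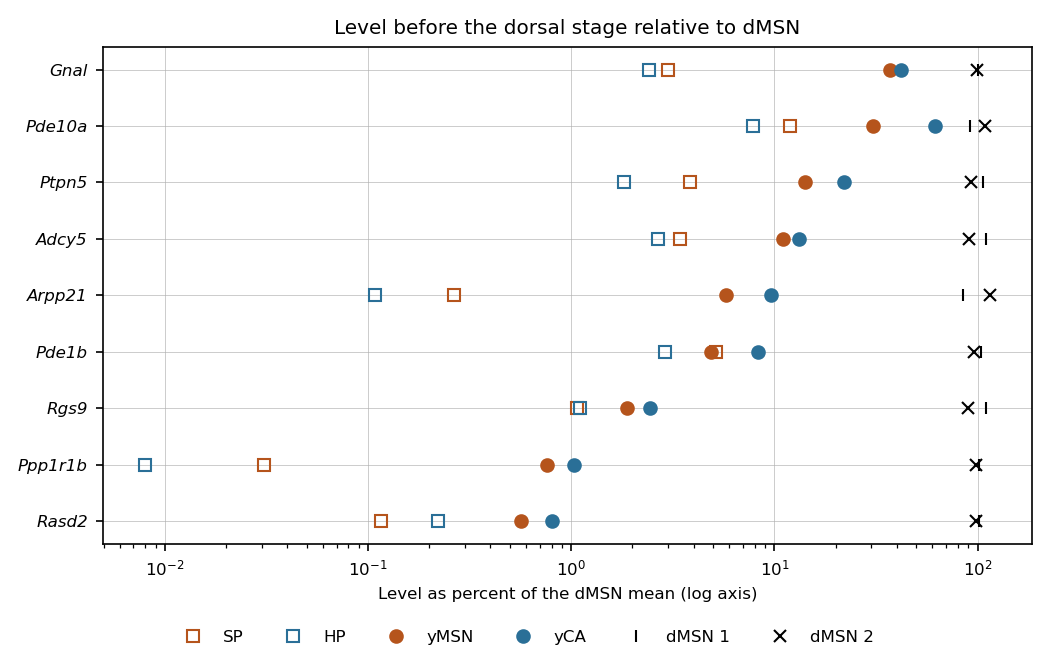
Level in each library as percent of the mean of dMSN 1 and dMSN 2, on a log axis, with genes ordered by the yMSN value. The yMSN points run from 37.2% for Gnal down to 0.565% for Rasd2, and yCA lies to the right of yMSN for each gene.

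Promoter sequence was looked up for the 9 genes in RefSeq windows of GRCm38.p6, 250 bases before and 50 after each annotated start. Windows on 1 chromosome were left out of the lookup, and 7 of 9 genes then had an entry. Ppp1r1b and Gnal had none, which does not show that the annotation lacks a start for them. Rasd2, Rgs9 and Adcy5 have exactly 1 annotated start each and are shown because the window to print is then unambiguous, at chr8:75213694-75213993 on the plus strand, chr11:109298132-109298431 on the minus strand and chr16:35154614-35154913 on the plus strand. Capitals mark any match to TGACG, the core of the cyclic AMP response element, or to TATAAA, on either strand.
Rasd2: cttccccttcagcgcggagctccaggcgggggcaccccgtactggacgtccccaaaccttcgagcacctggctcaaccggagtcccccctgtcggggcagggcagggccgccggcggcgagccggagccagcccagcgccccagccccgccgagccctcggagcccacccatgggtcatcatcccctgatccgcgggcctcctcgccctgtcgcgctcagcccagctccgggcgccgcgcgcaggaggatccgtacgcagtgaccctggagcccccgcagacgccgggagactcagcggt
Rgs9: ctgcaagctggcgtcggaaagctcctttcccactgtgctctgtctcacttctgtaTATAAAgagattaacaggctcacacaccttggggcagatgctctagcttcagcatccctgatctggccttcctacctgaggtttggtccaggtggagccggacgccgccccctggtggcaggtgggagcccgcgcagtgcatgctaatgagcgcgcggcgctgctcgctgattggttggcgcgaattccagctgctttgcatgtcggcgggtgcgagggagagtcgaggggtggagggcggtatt
Adcy5: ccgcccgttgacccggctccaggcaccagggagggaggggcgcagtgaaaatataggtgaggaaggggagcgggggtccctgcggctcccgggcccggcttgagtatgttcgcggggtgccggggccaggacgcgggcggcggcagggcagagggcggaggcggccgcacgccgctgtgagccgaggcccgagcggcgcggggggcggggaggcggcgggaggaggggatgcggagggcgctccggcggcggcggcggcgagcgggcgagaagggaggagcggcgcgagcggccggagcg
The 1 match in these windows was TATAAA in Rgs9, beginning 195 bases before the annotated start. Rasd2, Rgs9 and Adcy5 hold 33, 19 and 44 CpG dinucleotides, and 91.4%, 71.9% and 97.8% of 32841 promoter windows hold fewer, with a median of 7. All motifs were searched on both strands. TGACG occurs in 20.8% of all windows, TATAAA in 13.6% and the full element TGACGTCA, which contains TGACG, in 1.79%. Among the windows of the 7 genes, TGACGTCA was in none, TGACG was in 3 of the 9 windows of Arpp21, and TATAAA was also in 1 of the 3 windows of Pde1b. These are letter matches and not binding sites.

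No gene of the set was already higher in yMSN than in yCA. All 9 were lower in yMSN, where 50.5% of genes with at least 1 CPM had a ratio below 1, and 0 of 9 were at least 2-fold higher, where 11.7% were. Each library stands alone, so this difference has no replicate check and no test, and the intervals cover counting error only. The log2 ratio of yMSN over yCA was -1.02 for Pde10a (95% interval -1.09 to -0.94), the lowest, and -0.18 for Gnal (-0.23 to -0.13), the highest, with a median of -0.51. For each of the 9 genes the interval lay below 0.

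In linear terms Pde10a in yMSN stood at 0.494 times its yCA level, Pde1b at 0.581 times, Arpp21 at 0.600 times and Ptpn5 at 0.646 times. Rasd2, Ppp1r1b and Rgs9 stood at 0.704, 0.731 and 0.771 times, and Adcy5 and Gnal at 0.841 and 0.882 times. Pde10a was the 1 gene at least 2-fold lower, where 2.55% of genes were. Genes of neurons in general were also lower in yMSN. Of 14 pan-neuronal genes tested 13 were lower, with a median log2 ratio of -0.44, and the pyramidal neuron list had a median of -0.76 with 9 of 12 lower. Set against the pan-neuronal median, 6 of the 9 genes were lower in yMSN and 3 were higher, namely Gnal (0.26), Adcy5 (0.19) and Rgs9 (0.07). The muscle, olfactory, bone, and vessel and meninges genes given above differed in this pair too, and their part in the ratios was not tested.

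**Figure D3:**
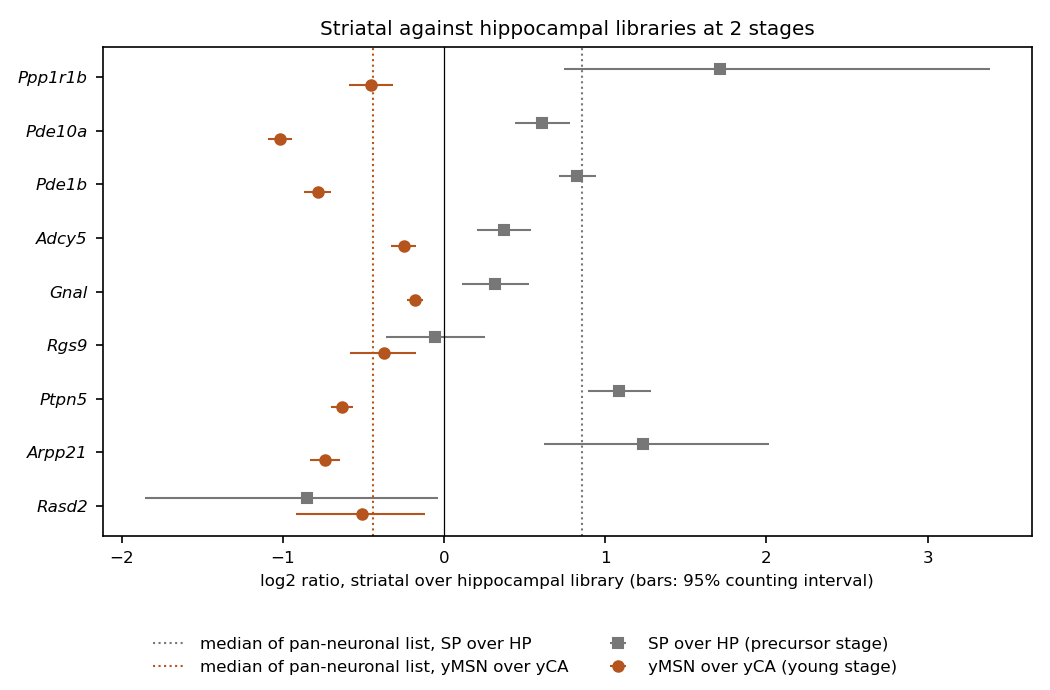
Log2 ratio of the striatal over the hippocampal library for each gene at the precursor stage (grey squares, SP over HP) and the young stage (orange circles, yMSN over yCA), with bars for 95% counting intervals and dotted lines for the median of the pan-neuronal list. All 9 circles lie to the left of 0, and 7 of 9 squares lie to the right.

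The precursor pair gave the other direction for most of the set. In SP against HP, 7 of 9 genes had a log2 ratio above 0 with an interval above 0, where 49.8% of genes with at least 1 CPM had a ratio above 1, and the median was 0.61. Ppp1r1b had a log2 ratio of 1.71 (interval 0.75 to 3.38, from 31 and 7 reads), Arpp21 1.23 (0.62 to 2.02, from 70 and 25 reads) and Ptpn5 1.08 (0.89 to 1.29). These ratios use a prior count of 2, and by that measure 2 of the 9 genes were at least 2-fold higher with at least 1 CPM, Arpp21 and Ptpn5, where 3.08% of all genes were, since Ppp1r1b stayed below 1 CPM in both. Rgs9 had a log2 ratio of -0.05 (-0.36 to 0.25), and Rasd2 was lower in SP at -0.85 (-1.86 to -0.04). All 14 pan-neuronal genes were higher in SP as well, with a median of 0.86, and set against that median 3 of the 9 genes were higher, Ppp1r1b (0.86), Arpp21 (0.38) and Ptpn5 (0.23).

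Of genes with at least 1 CPM in both pairs, 31.8% were higher in SP than in HP and lower in yMSN than in yCA, as were 6 of the 7 genes of the set that pass this minimum. Ppp1r1b and Rasd2 fall below it in the precursors. No lineage difference of this set passed the test over both stages. That test averages the stages and counts their disagreement as spread. For 7 of the 9 genes the stages gave opposite directions, so the test cannot show whether the lineages differ at either stage. In the edgeR model with lineage and stage as terms, 0 of 9 genes passed for striatal against hippocampal, as did 0 of 19192 genes overall (0% in either direction, with 826 at an unadjusted p below 0.05). Among the 9, Rasd2 alone had an unadjusted p below 0.05 (log2 difference -0.66, adjusted p = 1, SE 0.200). DESeq2 called 60 genes and limma voom 0, and neither called any of the 9.

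Young and precursor libraries were compared to see which genes were already higher before dMSN, irrespective of region. In young against precursor tissue over both lineages, 8 of 9 genes rose, where 21.7% of genes tested were called higher, with a median log2 change of 2.17 against 0.10 over all genes. Of 14 pan-neuronal genes 11 rose too, with a median of 2.28, and so did 15 of 15 muscle genes, with a median of 8.10; their part in the result was not tested. Ppp1r1b rose by 5.52 (adjusted p = 0.0029, SE 0.547 in edgeR), Arpp21 by 5.35 and Gnal by 3.88, while Rgs9 rose by 0.99. Pde1b did not pass (log2 change 0.72, adjusted p = 0.211, SE 0.397 in edgeR). Without the SP library its value was 1.52 and without yMSN 1.53, both past the threshold, whereas it was -0.09 without HP and -0.19 without yCA. With 1 mean per cell group the same log2 change of 0.72 passed (adjusted p = 0.0045 in edgeR), so its call depends on the model. Rgs9 no longer passed without yCA (0.72, adjusted p = 0.060 in edgeR) or with limma voom (adjusted p = 0.062).

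Single pairs show how far each lineage had moved. At least 2-fold higher levels were seen in 7 of 9 genes for yMSN over SP, where 25.1% of genes were, and in 9 of 9 for yCA over HP, where 23.4% were. Ppp1r1b was 23.1-fold higher in yMSN than in SP (95% counting interval 17.1 to 36.2) and 102.5-fold higher in yCA than in HP (62.8 to 324). Arpp21 was 21.2-fold higher in yMSN than in SP and 83.0-fold higher in yCA than in HP. For 8 of 9 genes the log2 ratio of yCA over HP was larger than that of yMSN over SP, and Rasd2 was the exception, at 2.17 for yMSN over SP against 1.81 for yCA over HP. No test of this difference between lineages was made, because each side is 1 library against 1.

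Other genes of cyclic nucleotide signalling moved less uniformly. Over 6 lists with 87 genes, 52 rose, 18 fell and 17 did not pass in dMSN against yMSN, with a median log2 change of 0.88, where 32.1% of all genes tested were called higher and 35.4% lower. Of 24 other cyclase, G protein and protein kinase A genes, 13 rose and 6 fell. Gng7, the gamma subunit that partners Golf, rose by 3.22 on the log2 scale, to 442.5 and 383 CPM in dMSN against 44.4 CPM in yMSN, and Prkar1b, a regulatory subunit of protein kinase A, rose by 3.05. Adcy6, the cyclase closest to Adcy5, fell by 2.32, to 17.6 and 18.3 CPM in dMSN against 89.7 CPM in yMSN, and Adcy4 fell by 2.61. Adcy1, a calcium-stimulated cyclase, stood at 100.1 CPM in yMSN against 209 CPM in yCA.

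Of 16 other phosphodiesterases, 7 rose and 5 fell. Pde2a and Pde8b rose by 3.20 and 3.15 on the log2 scale, while Pde3a and Pde5a fell by 4.83 and 2.68. Pde3a was at 0.233 CPM in each dMSN library, against 6.68 CPM in yMSN. Pde8a stood at 17.1 CPM in yMSN against 5.58 CPM in yCA, and Pde11a at 0.921 CPM in yMSN against 1.65 CPM in yCA.

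Of 18 phosphatases, inhibitors and kinases that act on DARPP-32 or beside it, 12 rose and 2 fell. Ppp3ca, the catalytic subunit of calcineurin, which dephosphorylates DARPP-32, rose by 3.68 on the log2 scale, to 2271 and 2351 CPM in dMSN against 180.1 CPM in yMSN. Its regulatory subunit Ppp3r1 rose by 2.36, and Cdk5, a kinase that phosphorylates DARPP-32 at another site, rose by 2.17. Ppp1r1a, which encodes inhibitor 1, the close relative of DARPP-32, rose by 3.49. Cdk5r1, the activator of Cdk5, stood at 298 CPM in yMSN against 494 CPM in yCA and did not pass in dMSN against yMSN (log2 change -0.33).

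Of 12 RGS genes and partners of Rgs9, 10 rose and 1 fell. Rgs14, known from hippocampal area CA2, rose by 6.25 on the log2 scale, Rgs4 by 4.16 and Rgs10 by 3.67. Rgs9bp, the retinal anchor of Rgs9, was the 1 that fell (adjusted p = 1.8e-04 in edgeR). No fold is given for it because dMSN 1 lay under the level of 3 reads, against 1.36 CPM in yMSN. Rgs11 stood at 25.5 CPM in yMSN against 3.24 CPM in yCA, and Rgs6 at 6.93 CPM in yMSN against 16.2 CPM in yCA.

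Of 7 nitric oxide and cyclic GMP genes, 2 rose and 3 fell. Prkg2, a cyclic GMP-dependent kinase, rose by 2.16 on the log2 scale, while Prkg1, another such kinase, and Gucy1a2, a subunit of guanylyl cyclase, fell by 2.95 and 2.10. Nos1, neuronal nitric oxide synthase, stood at 24.5 CPM in yMSN against 66.3 CPM in yCA and had a log2 change of 0.12 in dMSN against yMSN. Of 10 close relatives of the set, 8 rose and 1 fell. Rasd1, the nearest relative of Rasd2, rose by 5.18, to 49.2 and 24.3 CPM in dMSN against 1.01 CPM in yMSN, and Arpp19 rose by 2.13. Gnai3, an inhibitory G protein subunit, fell by 2.65. All 9 striatal receptor and peptide genes rose, with a median log2 change of 4.84, where 32.1% of all genes tested were called higher. Among them were Drd2 (4.04), Drd1a (3.53) and Adora2a (4.74).

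**Figure D4:**
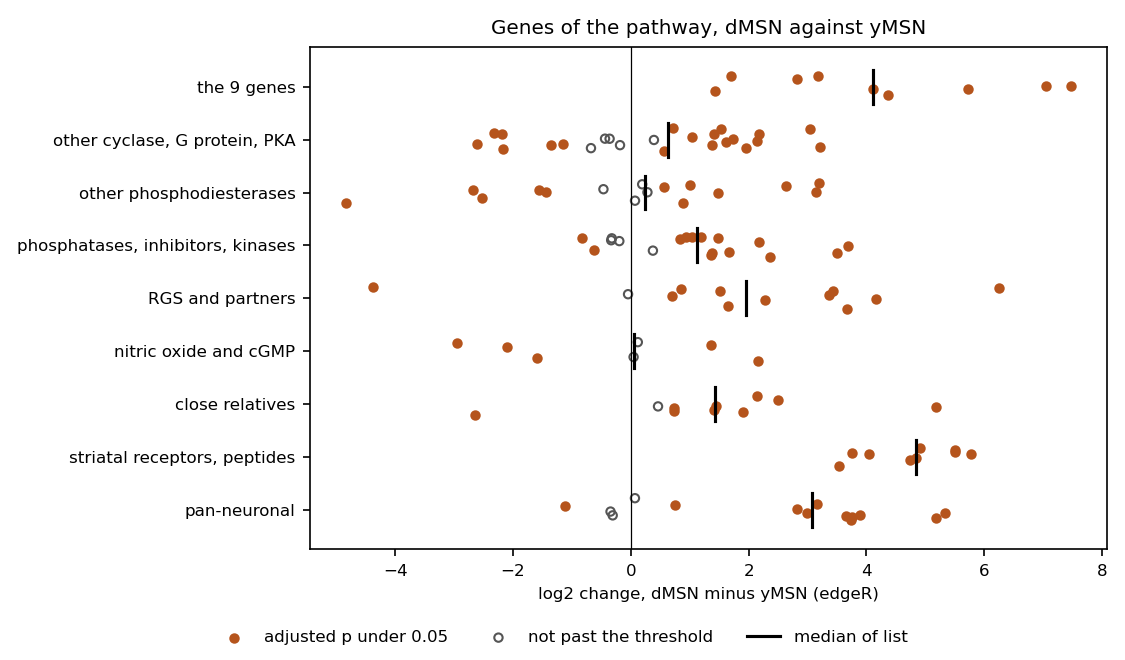
Log2 change of each gene in dMSN minus yMSN by list, with filled points past an adjusted p of 0.05 and open points not past it; black bars mark the median of each list. The 9 genes lie between 1.43 and 7.47, whereas the other phosphodiesterases spread to both sides of 0 around a median of 0.24.

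The profile over the 5 cell groups was compared with that of 12717 other genes of at least 5 CPM in some group, by the Euclidean distance of centred log2 levels. Nearest to Ppp1r1b were Hpca, a neuronal calcium sensor (distance 1.08), Vsnl1 (1.21), Thy1 (1.33), Eef1a2 (1.49), Ptgds (1.51) and Rasgrf1 (1.61). Hpca stood at 2460 and 2480 CPM in dMSN 1 and 2, with 21.6 CPM in yMSN. Among the nearest to the mean of the 9 genes were Calb1 (0.203), Syp (0.302), Camk2a (0.325), Syn1 (0.331) and Vstm2l (0.383), of which Syp and Syn1 encode general synaptic vesicle proteins. With 5 groups, 4 of them single libraries, the distance describes these libraries only.

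The set was split between the 2 dMSN libraries. Arpp21 and Pde10a were higher in dMSN 2, at log2 ratios of dMSN 2 over dMSN 1 of 0.43 and 0.24, and the other 7 were lower, from -0.01 for Gnal to -0.31 for Rgs9, where 49.1% of genes with at least 1 CPM were higher in dMSN 2. Among marker lists, 7 of 9 striatal receptor and peptide genes and 9 of 11 genes of vessels and meninges were higher in dMSN 2, with median log2 ratios of 0.13 and 0.10. Of the pyramidal neuron markers, 8 of 12 were higher in dMSN 2, their median log2 ratio was 0.37 and their sum was 2212 CPM in dMSN 2 and 1507 CPM in dMSN 1, with none at 0. Tbr1, a transcription factor of cortical projection neurons, had a log2 ratio of 1.01. Of the glial genes, 12 of 14 were lower in dMSN 2, with a median of -0.14. What part these cell types have in the levels of the 9 genes was not tested.

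**Figure D5:**
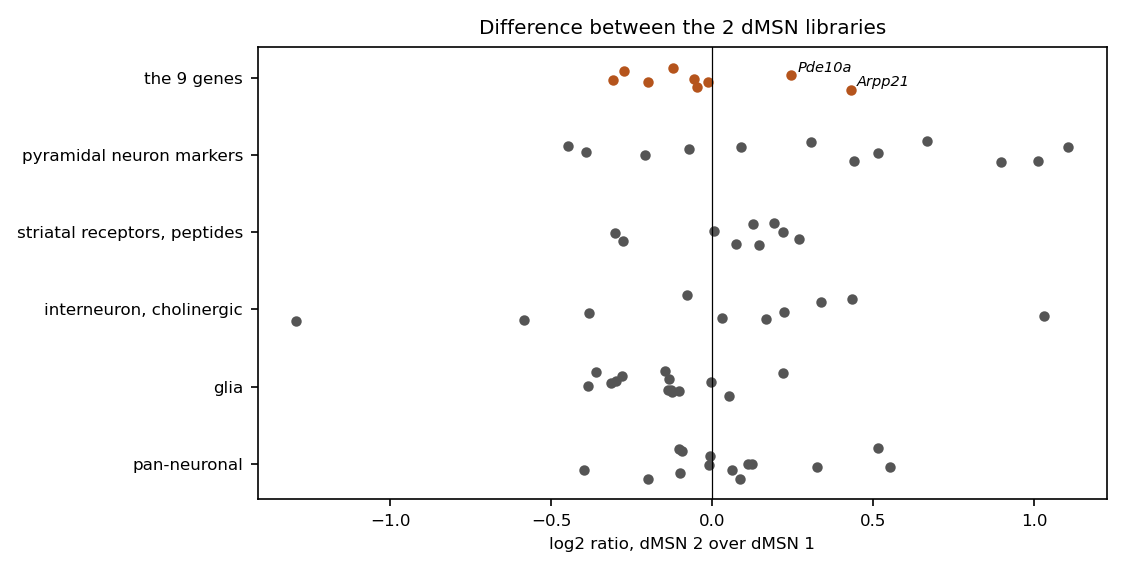
Log2 ratio of dMSN 2 over dMSN 1 for the 9 genes (orange) and for marker lists (grey). Arpp21 and Pde10a lie to the right of 0 and the other 7 genes to the left; 8 of 12 pyramidal neuron markers and 7 of 9 striatal receptor and peptide genes lie to the right, and 12 of 14 glial genes to the left.

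Counting could touch some levels. No strand setting is stated, and the GRCm38.p6 annotation has Chmp1b and Mppe1 overlapping Gnal. Chmp1b had 3956 and 5091 reads in dMSN 1 and 2, against 47080 and 44882 for Gnal, and 1328 in yMSN, against 6283 for Gnal. Mppe1 had 186 reads in SP and 153 in HP, against 463 and 326 for Gnal. The annotated gene that overlaps Ppp1r1b, 1700003D09Rik, had at most 122 reads in any library, with 1 read in SP and 0 in HP, against 31 and 7 for Ppp1r1b. Of the overlapping genes in the count tables, 2900079G21Rik, in the span of Arpp21, had 155 reads in yMSN and 220 in yCA, against 1667 and 2491 for Arpp21, and 2140 and 1975 in dMSN 1 and 2, against 68001 and 88251.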

How the data were processed

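Expression was read from 6 libraries of polyA RNA. The authors deposited whole-number read counts by gene symbol for each library, not normalized. The 5 closing lines of each table name no gene and stayed out of totals and tests. Reads outside any gene made up 5.34% to 9.81% and reads with several alignments 17.3% to 27.3%. TopHat2 2.0.2, Bowtie 1.0.0, HTSeq and edgeR are listed in the submitters' processing notes, with mm9 and NCBIM37 as builds and no role or order.

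The main tool was edgeR 4.0.16 under R 4.3.3, with TMM scaling, filterByExpr and the quasi-likelihood F test, adjusted by Benjamini-Hochberg over 19192 genes. The dMSN comparisons used 1 mean per cell group (1 residual degree of freedom), and the other tests a model with lineage and stage (2 residual degrees of freedom). The SE is the log2 change divided by the square root of F. For single pairs, without any test, ratios were taken after adding a prior count of 2, with exact binomial 95% intervals for counting error only. Alternatives were other scalings and filters, DESeq2 1.42.0, limma 3.58.1 (voom), the other model and left-out libraries. The steps were tested on simulated counts. Across the comparisons, 35.5% to 65.5% of simulated 2-fold changes and 80.5% to 83% of 4-fold changes were recovered. A gene that did not pass may therefore still have changed. The 65.5% was for striatal against hippocampal, which called 0 of 19192 genes in the measured counts. Whether that share holds where the stages disagree was not tested.

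The 9 genes and the lists were chosen with earlier results of these data known. Of each pathway list, up to 4 genes by size of change in dMSN against yMSN and up to 2 by the ratio of yMSN over yCA could be named, with at least 1 CPM in some library, and genes of the marker lists freely. The overlapping genes were named after their values were seen. Some genes that these rules name are not reported here.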

Additional observations from a re-analysis of the deposited data

Results flagged for a closer look

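For 7 of the 9 genes the 2 stages gave opposite directions: higher in SP than in HP, and lower in yMSN than in yCA. The log2 ratio of yMSN over yCA minus that of SP over HP was -2.16 for Ppp1r1b, -1.97 for Arpp21, -1.71 for Ptpn5, -1.63 for Pde10a, -1.61 for Pde1b, -0.62 for Adcy5 and -0.50 for Gnal. Of genes with at least 1 CPM in both pairs, 31.8% had this combination of directions, as did 6 of the 7 genes of the set that pass that minimum (Ppp1r1b does not). Pde1b was also not clearly different between yMSN and SP, with a counting interval that included 0, while it was higher in yCA than in HP. The difference between these log2 ratios was -1.61. The differences were not tested, since each library stands alone. Pan-neuronal genes had medians of -0.44 in yMSN over yCA and 0.86 in SP over HP, and their part in this pattern was not tested.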

How the results depend on the processing

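The number of the 9 genes called in dMSN against yMSN was 9 under every alternative run that gave a test except the model with lineage and stage, where it was 8. In dMSN against SP it was 9 under all that gave a test. In young against precursor it was 8, 7 to 9 with 1 library left out, 7 with limma voom and 9 with 1 mean per cell group. For striatal against hippocampal it was 0, and 0 to 1 with 1 library left out. The 1 was Pde10a, whose log2 difference of -0.22 became -1.02 without HP or SP and 0.61 without yCA or yMSN. In the main model for striatal against hippocampal, disagreement between the stages counts as spread. With 1 mean per cell group, or without HP, SP, yCA or yMSN, it does not. Over all genes that contrast called 0, against 60 in DESeq2, 356 with 1 mean per cell group, 1495 and 1510 when HP or SP was left out, and 116 and 130 when yCA or yMSN was. In young against precursor 6798 genes were called, and 3590 and 3647 without dMSN 1 and dMSN 2. Pde1b in young against precursor reversed to -0.09 and -0.19 without HP or yCA. Relative to the pan-neuronal list, the number at least 2-fold higher was 3 in place of 7 for yMSN over SP, 3 in place of 9 for yCA over HP and 0 in place of 2 for SP over HP. On that neuronal scale the log2 ratio was -0.16 for Pde10a in yMSN over SP, and -1.39, -0.61, -1.77 and -1.10 for Pde1b, Adcy5, Rgs9 and Rasd2 in yCA over HP. With the main TMM scaling, and not relative to that list, 4 were at least 1.5-fold higher for SP over HP. RLE scaling moved the median of all genes by -0.12 in young against precursor and in dMSN against SP, and upper quartile scaling by -0.15 in dMSN against yMSN, with no count of calls among the 9 changed. Total counts without composition scaling gave an all-gene median of 0.11 for yMSN over yCA, and all 9 ratios stayed below 0. Without either dMSN library the dMSN comparisons have no residual degree of freedom and no test, and without yMSN or SP the comparison with that library cannot be made. No paired analysis was possible because the RNA groups compared share replicate number 1 alone. Ppp1r1b, Rasd2 and Arpp21 had 7 to 70 reads in the precursor libraries, which limits their precursor ratios.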

Other observations

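Transcription factors of striatal projection neurons did not follow the signalling genes. Of 11 such genes, 1 rose and 8 fell in dMSN against yMSN, with a median log2 change of -0.82 (edgeR, adjusted p under 0.05). Of all genes tested, 32.1% were called higher and 35.4% lower in that comparison. Bcl11b, also called Ctip2, stood at 108 and 122 CPM in dMSN 1 and 2, against 296 CPM in yMSN, and Ebf1 at 6.27 and 5.06 CPM in dMSN 1 and 2, against 95.5 CPM in yMSN. Dlx6 rose by 1.30 on the log2 scale, and Foxp1 did not pass (log2 change 0.21). In yMSN over yCA, 5 of the 11 had a log2 ratio above 0 and 6 below, with -0.28 as the median.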
